A study of Mus musculus with 36 samples.

Results

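The nuclear genes for the respiratory chain and the ATP synthase were followed in the liver of male C57BL/6J mice. HF and LF stand for the high fat and low fat diets that the dams, and later their pups, were given. The members were all probes whose platform gene symbol begins with Nduf, Uqcr, Atp5 or Cox4 to Cox8, together with Sdhb, Sdhc, Sdhd and Cycs, and each gene was represented by its brightest probe. This gave 109 probes for 86 genes, out of 25697 probes and 16593 named genes on the array. No probe carried the symbol Sdha, so this subunit of complex II was not analysed here, nor were the subunits encoded by the mitochondrial genome. Membership was set by gene names alone, while the brightest probe was the one with the highest mean log2 intensity over all arrays.

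Total RNA of 36 livers was read on Illumina MouseRef-8 v2.0 arrays, each mouse on its own array. Dams were fed HF or LF from before mating through pregnancy and lactation, so effects of these periods cannot be told apart. From weaning until they were killed at 9 weeks of age the pups ate either diet. A group name gives the maternal diet, then the post-weaning diet. LF_LF held 9 mice from 4 birth cages, LF_HF 8 mice from 4 cages, HF_LF 9 mice from 5 cages and HF_HF 10 mice from 4 cages, with 12 cages in all, each of which had dams of 1 diet. The HF diet also held less carbohydrate than the LF diet, so effects of fat and carbohydrate cannot be told apart, and all mice were wild type, of 1 inbred strain and 1 sex. In RNA from whole liver, fewer cells of a type and less RNA per cell cannot be told apart.

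Oxidative phosphorylation passes electrons from NADH (through complex I) or succinate (through complex II) to coenzyme Q, on to complex III, by cytochrome c to complex IV (cytochrome c oxidase) and to oxygen. Complexes I, III and IV pump protons across the inner mitochondrial membrane, and complex V, the ATP synthase, uses their return to make ATP. Most subunits are encoded in the nucleus and a few in mitochondrial DNA, and some subunits of complex IV exist as paired isoforms, with 1 form common to most tissues and another typical of heart and skeletal muscle. Liver cells are rich in mitochondria and burn fatty acids through this chain.

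Values are log2 of the deposited probe intensity, which was not background-subtracted, and the fold change of a dim probe is therefore compressed. A probe was tested when its median over all mice reached 71.5, the median of all values (6.16 on the log2 scale), which kept 12289 probes. Of the 86 members, 77 passed: 32 of 33 complex I subunits and all 5 complex I assembly factors, 3 of 3 complex II subunits, 6 of 8 of complex III, 14 of 19 of complex IV, 15 of 16 of complex V, cytochrome c and 1 pseudogene, Ndufs5-ps. The 9 others were Ndufs1, Uqcrfs1, Uqcrq, Cox4i2, Cox6b2, Cox7b2, Cox8b, Cox8c and Atp5k. Except for Cox8b, described with the muscle isoforms, these dim members lay between 5.67 and 6.37 in every mouse, near the low end of the array's values, and were not compared.

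The labelled tissue was checked first. All 7 measured hepatocyte markers were above the filter, and their summed intensity ran from 61550 to 77119 over the HF_HF mice and from 64350 to 76116 over the other groups. No arrays held identical values, and the lowest correlation of arrays within a group was 0.9762. A pair of mice stood apart. HF_HF replicate 2 carried signal of striated muscle, with a summed intensity of 2921 over 6 muscle markers, against 350 to 394 in HF_LF, 352 to 385 in LF_HF and 355 to 381 in LF_LF. LF_HF replicate 2 had the lowest sums of its group for Kupffer cell or macrophage markers (1932, group median 4504) and for sinusoidal endothelial markers (2572, group median 4763). Calls that are lost, and values that move by over 1.5 times, without either mouse are given with and without it.

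Across all complexes the differences between diet groups were small. Groups were compared in pairs with limma at a false discovery rate of 5% over all 12289 kept probes. The 4 comparisons share groups and are therefore not independent of each other. The maternal diet gave no call among the members. After the post-weaning HF diet 6 members fell in pups of HF dams (HF_HF against HF_LF), where 6.11% of all kept probes were called lower and 5.15% higher. With LF dams (LF_HF against LF_LF) 1 member fell, where 1.29% were called lower and 1.77% higher. No member rose in any of the 4 comparisons. At an unadjusted p under 0.05 there were 14 and 10 members, and 2991 and 2039 kept probes. Cox7a1, the muscle-type isoform of complex IV subunit VIIa, was the member that passed in both.

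**Figure D1:**
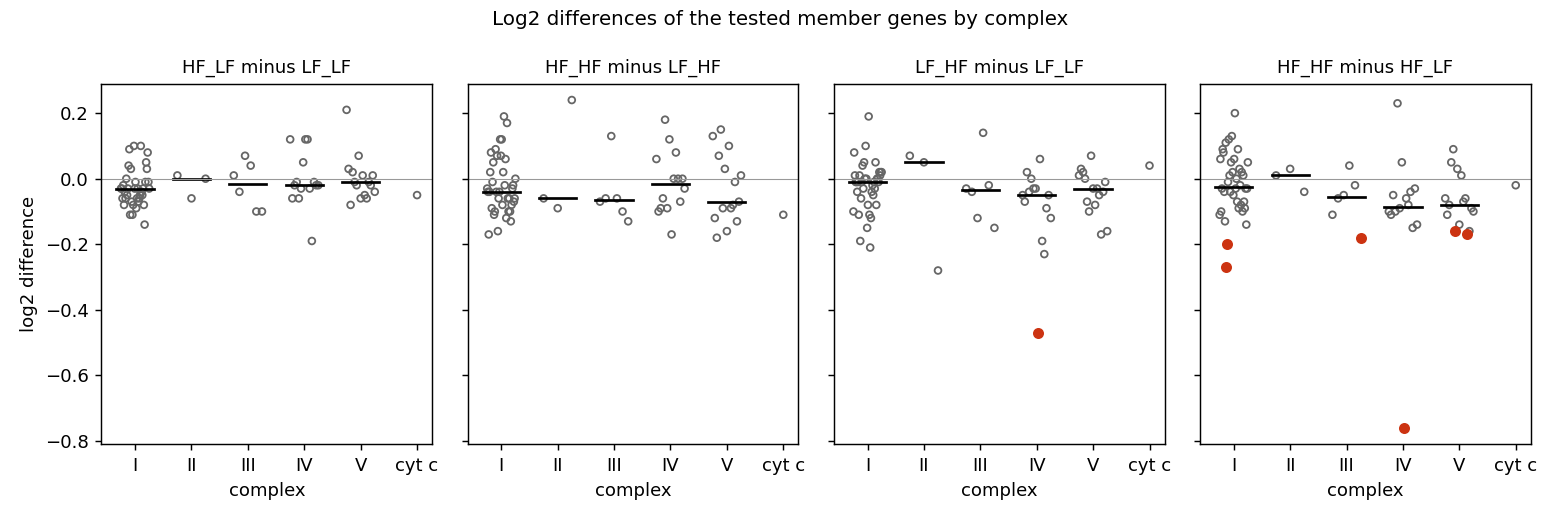
Log2 difference (vertical axis) of each of the 77 tested members by complex (horizontal axis) in the 4 pairwise comparisons, with the HF diet of interest minus the LF diet in each. Each circle is 1 gene, filled red circles passed a false discovery rate of 5% in limma, and black bars are medians. Red circles appear only in the post-weaning panels, 1 in LF_HF minus LF_LF and 6 in HF_HF minus HF_LF, and Cox7a1 lies lowest in both at -0.47 and -0.76.

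In pups fed HF after weaning and born to HF dams, the calls fell in complexes I, III, IV and V. The promoters of the 6 genes are shown first, because these are the members called lower in this comparison. Whether they varied together between mice was not tested. Each run covers 250 bases before to 50 bases after the RefSeq transcription start (build GRCm38.p6), written 5′ to 3′ on the strand of the gene. Capitals mark matches, on either strand, to 5 motifs known from promoters of respiratory genes: CGCATGCG (NRF1), CCGGAAG (ETS factors such as GABP), AAGATGGC (YY1), TCAAGGTCA (estrogen-related receptors) and GGGCGG (Sp1). The windows lie at chr7:30183921-30184220 on the plus strand for Cox7a1 and on the minus strand at chr2:36049289-36049588 for Ndufa8, chr6:126849095-126849394 for Ndufa9, chr4:116075021-116075320 for Uqcrh, chr11:96075582-96075881 for Atp5g1 and chr9:44920693-44920992 for Atp5l.
Cox7a1: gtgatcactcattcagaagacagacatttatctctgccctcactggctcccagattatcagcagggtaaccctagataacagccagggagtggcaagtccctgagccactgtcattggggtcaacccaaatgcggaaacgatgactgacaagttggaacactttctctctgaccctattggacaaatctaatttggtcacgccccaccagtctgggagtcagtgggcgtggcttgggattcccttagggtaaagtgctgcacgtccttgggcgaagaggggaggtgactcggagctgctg
Ndufa8: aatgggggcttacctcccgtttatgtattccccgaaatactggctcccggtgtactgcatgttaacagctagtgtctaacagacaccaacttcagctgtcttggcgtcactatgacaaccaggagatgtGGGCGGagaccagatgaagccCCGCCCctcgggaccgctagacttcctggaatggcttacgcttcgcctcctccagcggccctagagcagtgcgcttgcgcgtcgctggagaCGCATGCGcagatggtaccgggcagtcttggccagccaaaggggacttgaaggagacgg
Ndufa9: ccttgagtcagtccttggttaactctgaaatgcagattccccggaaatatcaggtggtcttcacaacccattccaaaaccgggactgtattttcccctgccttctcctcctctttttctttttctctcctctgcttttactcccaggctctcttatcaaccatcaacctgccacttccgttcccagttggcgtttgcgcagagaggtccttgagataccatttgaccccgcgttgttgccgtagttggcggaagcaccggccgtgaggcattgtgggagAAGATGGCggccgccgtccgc
Uqcrh: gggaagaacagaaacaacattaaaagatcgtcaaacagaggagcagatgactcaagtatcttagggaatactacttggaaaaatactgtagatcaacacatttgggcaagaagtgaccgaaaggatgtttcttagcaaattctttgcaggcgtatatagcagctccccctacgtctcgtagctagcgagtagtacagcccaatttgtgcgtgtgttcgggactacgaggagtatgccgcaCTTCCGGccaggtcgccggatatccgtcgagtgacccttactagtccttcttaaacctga
Atp5g1: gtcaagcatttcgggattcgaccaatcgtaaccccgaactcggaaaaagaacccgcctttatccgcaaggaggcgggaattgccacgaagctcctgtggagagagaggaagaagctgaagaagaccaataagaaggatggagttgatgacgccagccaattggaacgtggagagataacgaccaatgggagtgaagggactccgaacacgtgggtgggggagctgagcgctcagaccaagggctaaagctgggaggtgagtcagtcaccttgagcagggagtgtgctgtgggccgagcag
Atp5l: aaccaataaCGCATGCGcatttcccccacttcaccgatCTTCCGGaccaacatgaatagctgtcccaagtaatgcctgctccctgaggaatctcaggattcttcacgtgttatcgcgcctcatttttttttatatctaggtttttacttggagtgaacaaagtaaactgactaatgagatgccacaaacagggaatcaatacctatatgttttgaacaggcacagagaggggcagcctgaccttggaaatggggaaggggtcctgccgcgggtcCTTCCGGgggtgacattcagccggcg

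RefSeq promoters could be matched for 71 of the 86 members. An NRF1 match was found in 11 of these 71 genes (15.5%), against 2.07% of all 27025 genes with a promoter in the table. The ETS letters were found in 17 members (23.9%, against 9.93%), those of YY1 in 10 (14.1%, against 3.19%), those of estrogen-related receptors in 2 (2.82%, against 0.466%) and those of Sp1 in 33 (46.5%, against 38.2%). No motif lies within another of the 5, and no test was made of these shares. Among the printed windows, Ndufa8 held 1 NRF1 and 2 Sp1 matches, Atp5l 1 NRF1 and 2 ETS matches, Uqcrh 1 ETS match and Ndufa9 1 YY1 match in its first transcribed bases. None of these letters was found in the Cox7a1 and Atp5g1 windows, which says nothing of factors that bind other letters or other places.

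Cox7a1 was measured by 1 probe. Its log2 intensity ran from 7.49 to 8.16 in HF_LF (median 7.78) and from 6.60 to 8.01 in HF_HF (median 6.97). The highest HF_HF mouse was replicate 2, the animal with muscle signal, and the next highest HF_HF mouse was at 7.18, below every HF_LF mouse. Cox7a1 fell by 0.76 on the log2 scale (SE 0.14, 95% interval -1.04 to -0.48, adjusted p = 0.000886 in limma), to 0.592 of the HF_LF level. Without HF_HF replicate 2 it fell by 0.87 (adjusted p = 1.48e-05 in limma).

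Cox7a1 moved the same way in the offspring of LF dams. It ran from 7.31 to 7.98 in LF_LF (median 7.61) and from 6.80 to 7.61 in LF_HF (median 7.17), with some overlap of the groups. It fell by 0.47 (SE 0.11, 95% interval -0.70 to -0.24, adjusted p = 0.0198 in limma), to 0.723 of the LF_LF level. The call among pups of LF dams was lost with birth cage as a fixed block (adjusted p = 0.21), without cage 8 (adjusted p = 0.112) and without cage 11 (adjusted p = 0.0873), with the difference at -0.51, -0.42 and -0.42. The falls in the offspring of HF and LF dams were not shown to differ (difference of the log2 differences -0.29, SE 0.19, 95% interval -0.67 to 0.09, adjusted p = 0.859 in limma).

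Birth cages that held pups on both diets allow Cox7a1 to be read within a cage. HF pups were lower than LF pups in all 5 such cages. The difference of means was -1.05, -0.77 and -0.64 in cages 10, 20 and 23 of HF dams and -0.59 and -0.44 in cages 11 and 4 of LF dams. Each of these cages held 3 to 5 mice, so a single cage value is imprecise. The maternal diet did not give a call for Cox7a1: the difference was 0.12 (95% interval -0.08 to 0.33) on LF and -0.17 (95% interval -0.47 to 0.14) on HF.

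**Figure D2:**
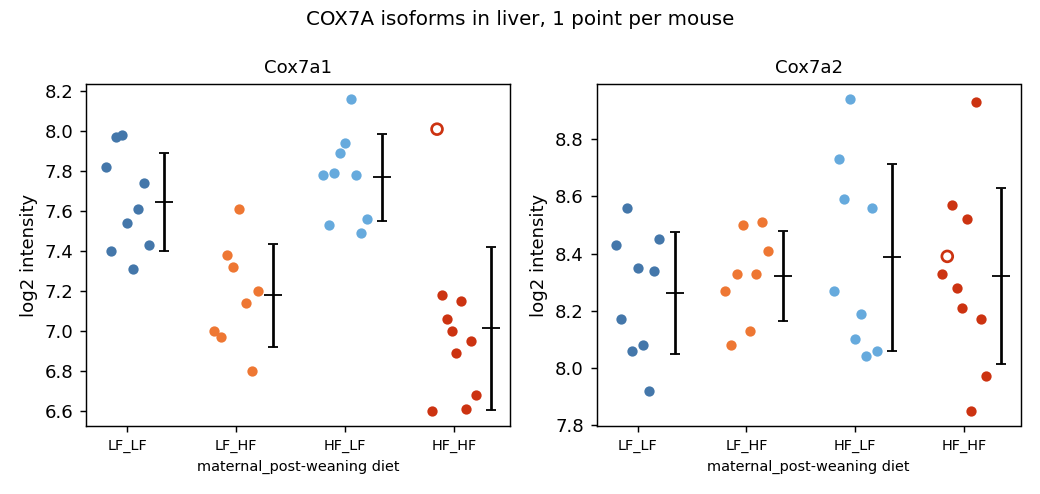
Log2 intensity of Cox7a1 (left) and Cox7a2 (right) in each mouse by maternal and post-weaning diet; bars are the mean and SD of 8 to 10 mice, and the open circle is HF_HF replicate 2. For Cox7a1, 9 of the 10 HF_HF mice lie below all HF_LF mice, while for Cox7a2 the groups overlap throughout.

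The paired isoform Cox7a2, the form common to most tissues, did not pass in any comparison. Its log2 intensity ran from 8.04 to 8.94 in HF_LF and from 7.85 to 8.93 in HF_HF, and the groups overlapped throughout. The difference was -0.06 (95% interval -0.33 to 0.21, adjusted p = 0.831 in limma) after HF in pups of HF dams and 0.06 (95% interval -0.12 to 0.24, adjusted p = 0.823 in limma) in pups of LF dams.

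Complex I, the NADH dehydrogenase, held 2 of the 6 calls. Ndufa8, an accessory subunit on the intermembrane side of the membrane, ran from 11.49 to 11.81 in HF_LF (median 11.73) and from 11.33 to 11.48 in HF_HF (median 11.41). The groups did not overlap. Ndufa8 fell by 0.27 (SE 0.05, adjusted p = 0.000819 in limma), to 0.83 of the HF_LF level, and a second probe of the gene fell by 0.26 (adjusted p = 0.00299 in limma). In pups of LF dams Ndufa8 was at -0.19 (SE 0.05, adjusted p = 0.0586 in limma), short of the threshold, with values from 11.56 to 11.85 in LF_LF (median 11.71) and from 11.46 to 11.64 in LF_HF (median 11.51). Ndufa9, an accessory subunit near the site where coenzyme Q binds, ran from 11.67 to 11.95 in HF_LF (median 11.83) and from 11.49 to 11.72 in HF_HF (median 11.61). The groups overlapped at their edges, and Ndufa9 fell by 0.20 (SE 0.05, adjusted p = 0.00863 in limma). The other 30 tested complex I subunits did not pass, and Ndufb3, an accessory subunit, was the highest of them at 0.20 (SE 0.07, adjusted p = 0.0652 in limma).

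Uqcrh, the hinge subunit of complex III that helps cytochrome c dock, ran from 13.02 to 13.21 in HF_LF (median 13.08) and from 12.76 to 12.99 in HF_HF (median 12.94), again without overlap. It fell by 0.18 (SE 0.05, adjusted p = 0.0102 in limma), to 0.88 of the HF_LF level. Its difference was -0.15 (SE 0.05, adjusted p = 0.105 in limma) after HF in pups of LF dams, and -0.10 and -0.13 for the maternal diet on LF and on HF, none of which passed. The other 5 tested complex III subunits did not pass.

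In complex V, Atp5g1 and Atp5l passed narrowly. Atp5g1 is 1 of 3 genes that encode the same mature c subunit of the proton-driven ring. It ran from 12.21 to 12.48 in HF_LF (median 12.37) and from 12.09 to 12.34 in HF_HF (median 12.21), with overlap, and fell by 0.16 (SE 0.05, adjusted p = 0.0411 in limma). Without HF_HF replicate 2 the adjusted p of Atp5g1 was 0.0508. Its companions Atp5g2 (0.03, 95% interval -0.10 to 0.16) and Atp5g3 (-0.14, 95% interval -0.26 to -0.02, adjusted p = 0.142 in limma) did not pass. Atp5l, subunit g in the membrane part of the enzyme, ran from 11.09 to 11.25 in HF_LF (median 11.17) and from 10.83 to 11.18 in HF_HF (median 10.97), with overlap, and fell by 0.17 (SE 0.05, adjusted p = 0.0413 in limma). Both calls were lost in 22 of 35 alternatives, with adjusted p reaching 0.29 for Atp5g1 and 0.209 for Atp5l. Atp5l in pups of LF dams was at -0.17, and at -0.08 without LF_HF replicate 2, whose value of 10.39 was the lowest of all mice. The same mouse was lowest for Atp5pb, subunit b of the stalk (9.84, next 10.42), and for Cox7a2l, a relative of Cox7a2 (9.50, next 10.31).

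**Figure D3:**
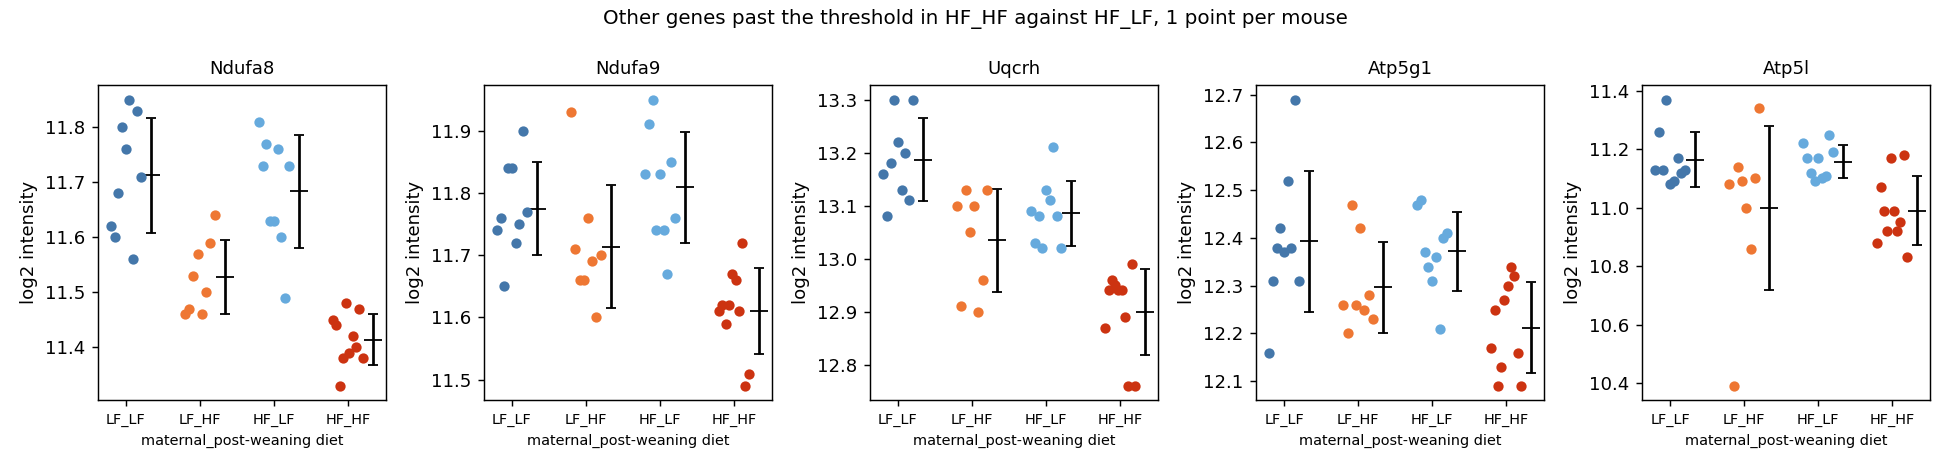
Log2 intensity of Ndufa8, Ndufa9, Uqcrh, Atp5g1 and Atp5l in each mouse by maternal and post-weaning diet, with the mean and SD of 8 to 10 mice as bars; each panel has its own vertical axis. The HF_HF mice lie below all HF_LF mice for Ndufa8 (highest 11.48 against lowest 11.49) and Uqcrh (12.99 against 13.02), and overlap them for Ndufa9, Atp5g1 and Atp5l.

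Between HF_HF and HF_LF, 6 of 77 members called lower is a share near the 6.11% of all kept probes. Every HF_HF mouse other than replicate 2 lay below every HF_LF mouse for 3 of 77 members (Cox7a1, Ndufa8 and Uqcrh), and for 0.57% of all kept probes. That mouse was left out after the data were seen, and with it the groups overlapped for Cox7a1. Within the cages that held both diets, Ndufa8, Ndufa9 and Uqcrh were lower in HF than in LF pups in 5 of 5 cages, and Atp5g1 and Atp5l in 4 of 5. With 1 mean per cage and group in place of the mice, 1 of the 6 calls remained, that of Cox7a1 (-0.83), and without cage 23 Cox7a1 (-0.85) and Ndufa8 (-0.25) remained. With birth cage as a fixed block the calls of Cox7a1, Ndufa8 and Uqcrh remained, and those of Ndufa9, Atp5g1 and Atp5l were lost. The differences themselves stayed close in size under 1 mean per cage and group, at -0.25 for Ndufa8, -0.19 for Ndufa9, -0.20 for Uqcrh, -0.15 for Atp5g1 and -0.18 for Atp5l.

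As a group, the members were centred slightly below zero in this comparison. Their median log2 difference was -0.04, against -0.0061 over all kept probes, and 51 of 77 were below zero, against 52.6% of all kept probes. By complex the median was -0.03 for complex I subunits, 0.01 for complex II, -0.06 for complex III, -0.08 for complex IV and -0.08 for complex V. The 5 complex I assembly factors had a median of 0.05, with none called. The median of the members in pups of LF dams was -0.03 (all kept probes -0.0031), with 54 of 77 below zero. The maternal comparisons gave a similar picture. On LF the median was -0.03 (all kept probes -0.0024), with 54 of 77 members below zero. On HF it was -0.04 (all kept probes -0.0057), with 50 of 77 below zero. The lean below zero was therefore not particular to the post-weaning diet. Leaving out 1 mouse or 1 cage moved the median to between -0.08 and -0.02 in pups of HF dams, with the ends without cage 23 and without cage 10, and to between -0.04 and -0.01 in pups of LF dams.

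The intervals bound what these data can show if littermates are taken as independent mice. The 95% interval lay within a 1.2-fold change in either direction for 57 of 77 members in HF_HF against HF_LF and for 64 in LF_HF against LF_LF, and within 1.5-fold for 75 and 76. Over all kept probes the 1.2-fold bound held for 68.6% and 71.3%. The fold change of a dim probe is compressed, so a bound on its intensity is not the same bound on its RNA. For the maternal diet the 1.2-fold bound held for 66 members on LF and 57 on HF, and the 1.5-fold bound for 77 and 76. Over all kept probes the 1.2-fold bound held for 81.8% and 74.6%. The maternal diet was given to dams, and these intervals rest on 4 or 5 birth cages per group, so they may be too narrow. With 1 mean per cage and group, calls over all probes in HF_HF against LF_HF went from 9 higher and 24 lower to 0 and 0.

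The maternal diet passed the test for no member. In HF_LF against LF_LF, limma called 0 of 12289 probes (0%), and 1 member and 803 probes had an unadjusted p under 0.05. The members with the lowest p in their complexes were Uqcrh (-0.10, SE 0.04, adjusted p = 0.724), Cox4i1, the common isoform of complex IV subunit 4 (0.12, SE 0.06, adjusted p = 0.765), the assembly factor Ndufaf5 (-0.11, SE 0.06, adjusted p = 0.767), Atp5j2, subunit f of the ATP synthase (-0.06, adjusted p = 0.857), cytochrome c (Cycs, -0.05, adjusted p = 0.877) and Sdhc, a membrane anchor of complex II (-0.06, adjusted p = 0.935). The median over the members was -0.03, against -0.0024 over all kept probes.

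In HF_HF against LF_HF, limma called 0.0732% of probes higher and 0.195% lower, none of them members, while 5 members and 1354 probes had an unadjusted p under 0.05. The complex I accessory subunit Ndufa12 ran from 10.77 to 11.01 in LF_HF and from 10.60 to 10.90 in HF_HF, a difference of -0.17 (SE 0.05, adjusted p = 0.215 in limma). Atp5g3 was at -0.16 (SE 0.06, adjusted p = 0.301), Uqcrh at -0.13 (SE 0.05, adjusted p = 0.314), Cycs at -0.11 (SE 0.06, adjusted p = 0.474) and the complex IV subunit Cox5b at -0.09 (SE 0.05, adjusted p = 0.525). Sdhd, the other membrane anchor of complex II, was at 0.24 (95% interval -0.03 to 0.51, adjusted p = 0.499).

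The interaction of both diets, fitted on all 4 groups, was called for 0% of the 12289 probes and for no member by limma, with 2 members and 776 probes at an unadjusted p under 0.05. The members' interaction estimates ran from -0.29, for Cox7a1, to 0.24. No difference of the post-weaning effect between offspring of HF and LF dams was thus shown for any member.

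Complex II, which links the chain to the tricarboxylic acid cycle, gave no call for its 3 measured subunits. The iron-sulfur subunit Sdhb differed by 0.01 after HF in pups of HF dams (95% interval -0.19 to 0.22) and by 0.07 in pups of LF dams (95% interval -0.08 to 0.23). Sdhc differed by 0.03 (95% interval -0.12 to 0.18) and 0.05 (95% interval -0.09 to 0.20). Sdhd was at -0.04 (95% interval -0.35 to 0.27) in pups of HF dams and at -0.28 (SE 0.08, adjusted p = 0.0646 in limma) in pups of LF dams, where it ran from 7.48 to 8.10 in LF_LF and from 7.27 to 7.77 in LF_HF. The electron carrier Cycs differed by -0.02 (95% interval -0.13 to 0.09) and 0.04 (95% interval -0.06 to 0.13).

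The isoform pairs of complex IV differed in how far they could be measured. The common isoforms were well above the filter and gave differences of -0.10 (Cox4i1), -0.10 (Cox6a1), -0.09 (Cox6b1) and -0.03 (Cox8a) in HF_HF against HF_LF, none of which passed. With birth cage as a fixed block Cox4i1 passed at -0.20 (adjusted p = 0.0242 in limma), and without cage 23 it was at -0.06. Ndufa4, first described with complex I and now counted as a complex IV subunit, was at -0.14 (SE 0.06, adjusted p = 0.139 in limma). Cox4i2, the lung and hypoxia-related isoform, Cox6b2 and Cox8c, both known from testis, stayed among the dim members in every group.

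The heart and muscle isoforms Cox6a2 and Cox8b were dim in nearly every mouse and bright in 1. Cox6a2 read 391.2 in intensity in HF_HF replicate 2 and from 61.1 to 80.2 in the other 35 mice, and Cox8b read 274.2 against 56.5 to 113. In the same mouse the muscle markers Acta1 (skeletal actin), Myl1 (a myosin light chain), Tnnt3 (fast troponin T) and Ckm (muscle creatine kinase) read 971.5, 1457, 219.6 and 140, against at most 65.9, 79.4, 70.6 and 68.7 in the others. The difference of Cox6a2 between HF_HF and HF_LF was 0.23 with this mouse (95% interval -0.25 to 0.71, adjusted p = 0.604 in limma) and -0.02 without it (adjusted p = 0.871 in limma). The muscle myosin heavy chains Myh4 (66.9) and Myh6 (66.4) were within the range of the other mice. Cox7a1 read 257.1 in this mouse, within the range of 97 to 286 in the others. The highest Cox8b value among the others, 113, was that of LF_HF replicate 5, whose group had a highest summed muscle marker intensity of 385.

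**Figure D4:**
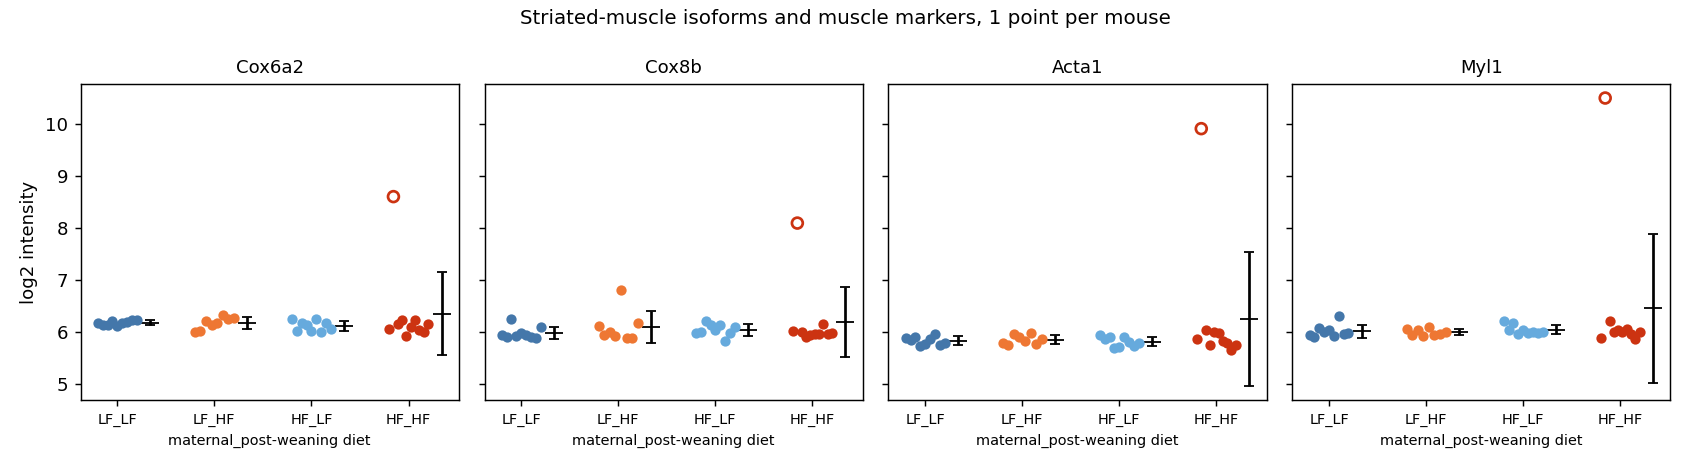
Log2 intensity of the muscle isoforms Cox6a2 and Cox8b and of the muscle markers Acta1 and Myl1 in each mouse by maternal and post-weaning diet, with mean and SD as bars and HF_HF replicate 2 as an open circle. That mouse reads 8.61 for Cox6a2 and 8.10 for Cox8b, while the other mice form a flat band near 6 apart from the 6.82 of LF_HF replicate 5 for Cox8b.

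Some members varied widely between mice of a group. Over the 4 pairwise comparisons the median size of the members' log2 differences between groups was 0.043 to 0.080. The median within-group SD was 0.119 over the members and 0.136 over all kept probes, but it was 0.40 for Atp5a1, subunit alpha in the catalytic head of the ATP synthase, and 0.39 for Ndufb9. In HF_LF replicate 4 and HF_HF replicate 8, 7 members (Atp5a1, Atp5e, Cox7a2, Ndufb2, Ndufb5, Ndufb9 and Sdhd) lay 0.5 or more above their group means, or 9.09% of the 77 members, against 1.04% of all kept probes. All 7 had medians between 7.19 and 9.19, and none of the 46 members with a median of 11 or more shared the pattern: these deviated by -0.27 to 0.31 in HF_LF replicate 4 and by -0.39 to 0.24 in HF_HF replicate 8. The set was described after its values were seen and was not tested. Atp5a1 read 10.43 in HF_LF replicate 4, 10.33 in HF_HF replicate 8 and 8.52 in HF_HF replicate 7, deviations of 1.07, 1.03 and -0.77 from the group means. Ndufb9 read 9.57, 9.31 and 7.64 in the same mice. HF_HF replicates 7 and 10 were low for all 7 genes, and HF_HF replicate 3 was high for all 7.

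**Figure D5:**
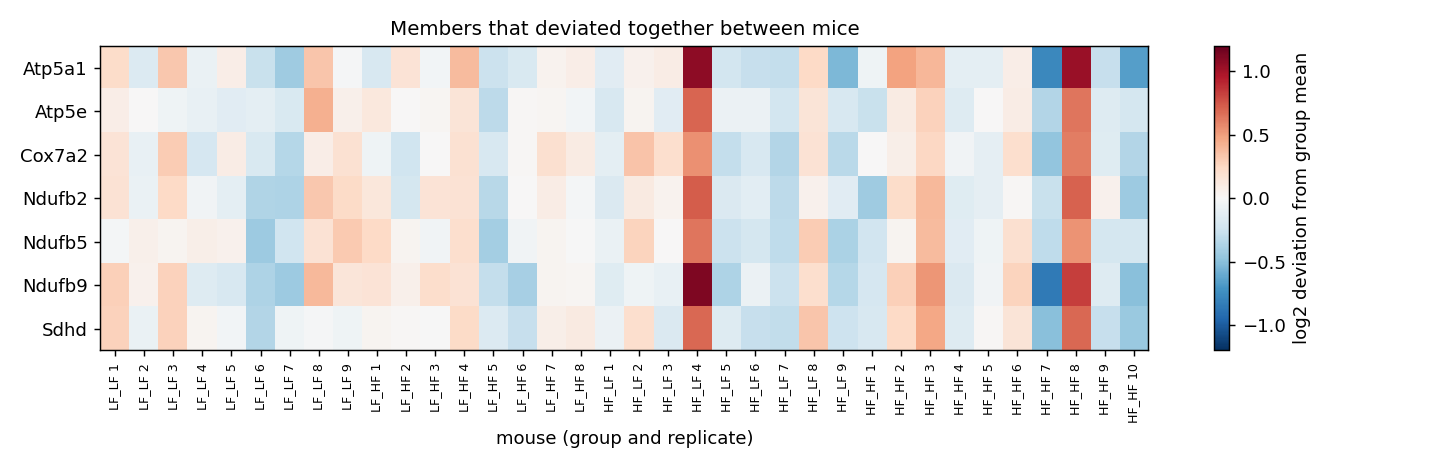
Deviation of log2 intensity from the group mean (color scale) of the 7 members that lay 0.5 or more above it in HF_LF replicate 4 and HF_HF replicate 8 (rows), in each of the 36 mice (columns). Those mice are red in every row and HF_HF replicate 7 is blue in every row, with Atp5a1 at 1.07, 1.03 and -0.77.

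Other probes of the same genes did not always follow. The brightest probe of Ndufs4, a complex I subunit, deviated by -0.06 in HF_LF replicate 4 and by -0.22 in HF_HF replicate 8. The dimmest of its 4 probes deviated by 0.73 and 0.64. Its other probes, with medians of 10.45 and 10.32, deviated by 0.41 and 0.35 and by 0.49 and 0.35. For Ndufa5 the brightest probe deviated by -0.11 and -0.19 and the second by 0.75 and 0.71. Of the 86 member genes, 17 had more than 1 probe, so this comparison was open for few genes, and among the 7 genes of the set none had a second probe. In the diet comparisons no other probe of a member passed apart from the second of Ndufa8.

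Genes around the chain, taken from lists of mitochondrial function, were read from the same fits. Of the 146 tested, 9 were called lower (6.16%) and 2 higher (1.37%) in HF_HF against HF_LF, beside 6.11% and 5.15% of all kept probes, so the share called lower was near that of the whole array. With LF dams 1 was called lower and 1 higher, or 0.685% each, beside 1.29% and 1.77%. In HF_HF against HF_LF the coactivators of mitochondrial biogenesis Ppargc1a and Ppargc1b fell by 0.43 (SE 0.10, adjusted p = 0.00937 in limma) and 0.45 (SE 0.08, adjusted p = 0.00107), 2 of 10 tested regulators, and none rose. Citrate synthase (Cs), which opens the tricarboxylic acid cycle, fell by 0.25 (adjusted p = 0.0146), 1 of 11 tested cycle genes. With LF dams the differences of Ppargc1a, Ppargc1b and Cs were -0.10, -0.19 and -0.13, none past the threshold. The interaction estimates of Ppargc1a, Ppargc1b and Cs were -0.33, -0.26 and -0.12, with adjusted p of 0.739, 0.867 and 0.922, so a difference between offspring of HF and LF dams was not shown.

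Of 7 enzymes that feed electrons to coenzyme Q from fat and other fuels, Gpd2, the mitochondrial glycerol phosphate dehydrogenase, fell by 0.38 (adjusted p = 0.00899) and Etfdh, which takes electrons from fatty acid oxidation, by 0.20 (adjusted p = 0.0413), while proline dehydrogenase (Prodh) rose by 0.49 (adjusted p = 0.00852). In pups of LF dams Gpd2 fell by 0.40 (adjusted p = 0.0421) and Prodh rose by 0.37 (adjusted p = 0.0441), and the other 5 did not pass.

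The remaining lists held 1 or 2 calls each in HF_HF against HF_LF, included in the shares above. Among 31 tested assembly factors not covered by the name rule, Cox19, a copper-handling factor of complex IV, fell by 0.36 (adjusted p = 0.00685) and Coa4, another complex IV factor, rose by 0.25 (adjusted p = 0.0276). Coq10b, a coenzyme Q binding protein, fell by 0.36 (adjusted p = 0.0454), 1 of 10 tested genes of coenzyme Q synthesis. The ATP synthase inhibitor Atpif1 fell by 0.28 (adjusted p = 0.0404), 1 of 7, and Mrpl48 was the 1 of 70 mitochondrial ribosomal genes to fall (by 0.18, adjusted p = 0.0296). No gene of these lists passed in either maternal comparison, and in pups of LF dams only Gpd2 and Prodh did. Without HF_HF replicate 2 the calls of Etfdh (-0.20, adjusted p = 0.051) and Atpif1 (-0.26, adjusted p = 0.0654) were lost, and without LF_HF replicate 2 that of Prodh in pups of LF dams (0.34, adjusted p = 0.0759).

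Of 39 tested markers of cell types, 2 were called lower and 2 higher in pups of HF dams, or 5.13% each, near the 6.11% and 5.15% of all kept probes. In HF_HF against HF_LF, 1 of 6 tested sinusoidal endothelial markers passed: Oit3 fell by 0.41 (adjusted p = 0.00155), and the log2 difference of all 6 was below zero. The summed intensity of this list ran from 4513 to 5931 in HF_LF and from 3670 to 5360 in HF_HF. Of the erythroid markers Hba-a1 fell by 0.48 (adjusted p = 0.0414) and Alas2 rose by 0.30 (adjusted p = 0.0325), with sums of 6782 to 14759 and 4878 to 9900. The acinar marker Cela1 rose by 0.81 (adjusted p = 0.0264), with sums of 376 to 783 and 419 to 2000 over its list, the highest again in HF_HF replicate 2. Without that mouse its difference was 0.69 (adjusted p = 0.0454). No hepatocyte, Kupffer cell or macrophage, stellate, cholangiocyte, lymphocyte, neutrophil or adipocyte marker passed in any pairwise comparison, and no marker of any list passed in the maternal comparisons or in pups of LF dams. The 3 tested neutrophil markers had a median log2 difference of 0.48 in HF_HF against HF_LF and of 0.40 in LF_HF against LF_LF. The part of these cells in the results on the members was not tested.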

How the data were processed

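Liver RNA of 36 male mice was measured on 1-colour Illumina MouseRef-8 v2.0 arrays. The authors deposited BeadStudio probe intensities that they had quantile-normalized, on a linear scale. The values ran from 45.7 to 32949.1, with no sign of background subtraction, and log2 of the deposited values was taken here. Probes whose median over the 36 arrays was under 71.5 were left out (13408 of 25697). Of all probes, 23978 had 1 symbol in the platform annotation and 1719 had none. Groups were compared in pairs, and in 1 fit of all 4 for the interaction, with limma (lmFit and eBayes with a variance trend; limma 3.58.1, statmod 1.5.0, R 4.3.3), two-sided, with Benjamini-Hochberg adjustment over the 12289 kept probes. The fit of HF_HF against HF_LF was tested on simulated arrays of independent values without cages, with known changes in some probes. Recovery was required only for changes larger than any member difference between groups in the main fits. The other scripts were not tested in this way.

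Members were represented by the brightest probe of each gene. Named genes were, in each pairwise comparison and complex, up to 4 past the threshold with the lowest p, or the 1 with the lowest p where none passed, plus the isoform sets, complex II and cytochrome c. Further genes, such as Ndufb3, Cox7a2l, Atp5pb, Ndufs4, Ndufa5, and the 7 that varied together, were named after their values were seen. The members and the gene lists were chosen with earlier results of these data known. Promoters came from RefSeq (GRCm38.p6). The arrays carry no replicate number, so mice were numbered within groups in accession order. Mice born in 1 cage were counted as separate samples, and the alternatives include birth cage as a block. The number of arrays limits the precision.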

Additional observations from a re-analysis of the deposited data

Results flagged for a closer look

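A mouse was singled out where its gap to the nearest mouse of its group was large against the range of the group (Dixon's test at the 95% level). Of 96 combinations of a named member and a group, 7 were singled out, and chance alone singles out about 1 in 20.

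HF_HF replicate 2 accounted for 3 of the 7, with log2 intensities of 8.61 for Cox6a2 (next 6.24), 8.10 for Cox8b (next 6.16) and 8.01 for Cox7a1 (next 7.18). This mouse also read 971.5 for Acta1 and 1457 for Myl1 in intensity, against at most 65.9 and 79.4 in the others. The part of muscle RNA in the values of these isoforms was not tested. LF_HF replicate 5 read 6.82 for Cox8b (next 6.17).

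In LF_LF, replicate 8 was high for Cox6b1 (13.20, next 13.09) and for Ndufaf5 (7.35, next 7.24), and replicate 2 was low for Ndufa12 (10.73, next 10.84).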

How the results depend on the processing

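The number of members called was 0 for both maternal comparisons and for the interaction under every alternative tried. In pups of LF dams it was 1, and became 2 with a stricter filter on dim probes, with all 4 groups in 1 fit and with no variance trend, each time by adding Ndufa8 (adjusted p = 0.0471, 0.0189 and 0.0386 in limma). It became 0 with birth cage as a fixed block. Leaving out 1 mouse or 1 cage gave 0 to 2: none without cage 8 or cage 11, where Cox7a1 was at -0.42 with adjusted p = 0.112 and 0.0873, and 2 without LF_HF replicate 2 (adding Ndufb3, higher by 0.23, adjusted p = 0.0493), without LF_LF replicate 6 or LF_HF replicate 4 (adding Sdhd, adjusted p = 0.021 and 0.0478), and without LF_LF replicate 7 or cage 6 (adding Ndufa8, adjusted p = 0.0412).

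In pups of HF dams the count of 6 became 1 with 1 mean per cage and group. Leaving out 1 mouse or 1 cage gave 2 to 6, the lowest without cage 23. Cox7a1 stayed past the threshold in all 35 alternatives (-0.98 to -0.64, adjusted p from 1.48e-05 to 0.014 in limma). Atp5l (-0.19 to -0.14) and Atp5g1 (-0.22 to -0.13) were each lost in 22 of them, Ndufa9 (-0.23 to -0.16) in 3, Uqcrh (-0.21 to -0.16) in 2 and Ndufa8 (-0.29 to -0.25) in 1. With birth cage as a fixed block Cox4i1 was gained (-0.20, adjusted p = 0.0242 in limma). The same fit lost Ndufa9 (-0.16, adjusted p = 0.196), Atp5g1 (-0.13, adjusted p = 0.29) and Atp5l (-0.17, adjusted p = 0.209). With all 4 groups in 1 fit the count was 7. That fit lost Atp5l (adjusted p = 0.128 in limma) and gained Ndufb3 as higher (0.20, adjusted p = 0.0361). It also gained the complex IV subunit Cox7c as lower (-0.15, adjusted p = 0.0362). Cox7c passed as lower too without cage 12 or 20, HF_HF replicate 7 or HF_LF replicate 9, each left out alone. The assembly factor Ndufaf7 passed as higher without cage 12 (0.21, adjusted p = 0.0334). Ndufb3 also passed as higher without cage 10 (0.27, adjusted p = 0.0219) and without HF_HF replicates 1 or 8 or HF_LF replicates 1 or 3, each left out alone (0.22 to 0.23). Over all kept probes, 1 mean per cage and group left 193 higher and 178 lower in pups of HF dams (633 and 751 with each mouse) and 13 and 17 in pups of LF dams (217 and 159), and birth cage as a fixed block left 363 and 527 and 23 and 19. For the maternal diet on HF, birth cage as a random block left 0 and 4 (9 and 24 without it), and 1 mean per cage and group left 0 and 0. Leaving out 1 mouse or 1 cage moved the median of the members to between -0.04 and -0.01 for the maternal diet on LF, -0.06 and -0.03 on HF, -0.04 and -0.01 for the post-weaning diet in pups of LF dams (the upper end without cage 11 or LF_LF replicate 8) and -0.08 and -0.02 in pups of HF dams. The genes of the lists were also fitted without HF_HF replicate 2 or LF_HF replicate 2, chosen after seeing the data. No called value turned its direction.

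No paired analysis was possible because the labels give the mice no replicate numbers, except by birth cage. The labels do give birth cages, 5 of which held pups on both diets, and cage was used as a block. As a fixed block it compared the post-weaning diets within these cages. That fit lost the calls of Ndufa9, Atp5g1 and Atp5l in pups of HF dams and of Cox7a1 in pups of LF dams. Dim probes lie close to background, so the 9 members under the filter could not be compared at this signal.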
